A study of Mus musculus with 9 samples.

Results

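The genes described here are 37 autophagy and lysosome genes of mouse liver, taken from a deposited table of 37583 genes by their gene symbols. All 37 were found in the table and all 37 passed the filter on low values. They fall into 7 blocks by role: 6 genes of initiation and nucleation, 8 of the conjugation machinery, 5 ATG8 proteins, 4 cargo receptors, 2 transcription factors, 3 lysosomal membrane proteins, and 9 lysosomal hydrolases and their activators. The rule names symbols and uses no measured value, but it was drawn up with earlier results of these data known.

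Liver RNA of adult male C57Bl6 mice aged 16 to 20 weeks was sequenced as 9 samples, in 3 groups of 3, after a fast of 6 h. The labels number the samples of a group separately but do not state that each came from its own mouse. Each sample is called a liver here. Antibody-labelled mice were Gcgr+/+ and received 10 mg/kg of a humanized antibody to the glucagon receptor by weekly intraperitoneal injection for 10 days. Knockout-labelled mice were Gcgr-/- and received PBS on the same schedule, and wild-type mice were Gcgr+/+ and received PBS. All 3 groups were of the same labelled strain, age and fast, and which part of Gcgr the Gcgr-/- allele alters is not stated in the labels. The study used both models to look for liver transcripts that change when hepatic glucagon signalling is interrupted.

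Autophagy encloses cytoplasm, glycogen, fat droplets and organelles in a membrane sac, the autophagosome, which fuses with the lysosome, where acid hydrolases break the cargo down. In liver it supplies amino acids, glucose and fatty acids during fasting, and glucagon has long been known to raise the number of autophagic vacuoles in rat liver. The kinase complex mTORC1, which amino acids activate at the lysosome surface, blocks the ULK kinases that start autophagy and keeps the transcription factor TFEB in the cytoplasm. Once in the nucleus, TFEB and its relative TFE3 bind E-box elements in promoters of many lysosome and autophagy genes.

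The table holds normalized values per gene and liver with a floor of 1. The estimated reads on genes came to 10.99 M (M, mega) in knockout-labelled liver 1 and to 21.56 to 30.06 M in the other 8 livers. Gcgr, the check of the labels, had normalized values of 2271, 2496 and 1808 in the antibody-labelled livers, 27365, 19656 and 21129 in the knockout-labelled livers, and 19547, 17565 and 18450 in wild type. The library label Gcgr-/- was thus not matched by a low Gcgr value, whereas the antibody-labelled livers, whose label is Gcgr+/+, were low (log2 fold change over wild type -3.09, SE 0.149, limma adjusted p = 2.29e-06). The table gives 1 value per gene and does not tell transcript of an intact allele from transcript of an altered one. These values cannot tell a transcript kept by the Gcgr-/- allele apart from an exchange of the antibody and knockout columns. The groups are called by their labels throughout. With an exchange, each value and fold change over wild type printed for either of these groups would belong to the other. This includes the 5 calls given further on. Each fold change of antibody-labelled over knockout-labelled livers would then change sign. The 11 hepatocyte markers were above the floor in every liver, with summed values of 1969120, 1892907 and 2051652 in the antibody-labelled livers, 3106909, 1979495 and 2290601 in the knockout-labelled livers, and 2290120, 1989166 and 2425094 in wild type. In bulk liver, fewer cells of a type and less RNA per cell cannot be told apart.

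Transcript levels of the autophagy and lysosome genes lay close together in the 3 groups. With limma and adjustment over all 20029 genes tested, 0 of 37 members passed an adjusted p of 0.05 between antibody-labelled livers and wild type, where 1.34% of all genes passed. Between knockout-labelled livers and wild type 0 of 37 passed, beside 0.155% of all genes, and between antibody-labelled and knockout-labelled livers 0 of 37, beside 0.28% of all genes. The lowest adjusted p of a member was 0.12, 0.149 and 0.256 in those 3 comparisons. At an unadjusted p under 0.05 there were 4 members higher and 0 lower in antibody-labelled livers than in wild type, beside 5.74% and 4.53% of all genes. There were 2 higher and 0 lower in knockout-labelled livers than in wild type, beside 5.61% and 8.16% of all genes. In the direct comparison 0 were higher and 3 lower in antibody-labelled livers than in knockout-labelled livers, beside 7.78% and 5.53%. Both comparisons with wild type share the same 3 wild-type livers.

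A p that misses the threshold does not show equal levels, so the intervals of the differences were read as well. The 95% interval of every one of the 37 members, taken gene by gene, lay inside a 2-fold change in either direction in each of the 3 comparisons. Over all genes tested this held for 64.9%, 64.6% and 64.5% in the comparisons of antibody-labelled livers with wild type, knockout-labelled livers with wild type and antibody-labelled with knockout-labelled livers. The members were better expressed than most genes: 36 of 37 had a mean value above 293, the median over genes tested, and the distance from the fold change to either end of the interval had a median of 0.26 on the log2 scale, beside 0.46 over all genes. Inside a 1.5-fold change lay 32, 33 and 29 of the 37. The genes whose interval reached further were Wipi1, Gabarapl1, Mcoln1, Hexa and Lipa in antibody-labelled livers over wild type, and Wipi1, Sqstm1, Hexa and Gla in knockout-labelled livers over wild type. In the direct comparison they were Ulk1, Atg10, Map1lc3a, Sqstm1, Mcoln1, Ctsl, Gla and Lipa. The interval that reached furthest up was that of Wipi1 in antibody-labelled livers over wild type, with an upper end of 0.91 on the log2 scale, and the one that reached furthest down was that of Ctsl in antibody-labelled over knockout-labelled livers, with a lower end of -0.77.

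**Figure D1:**
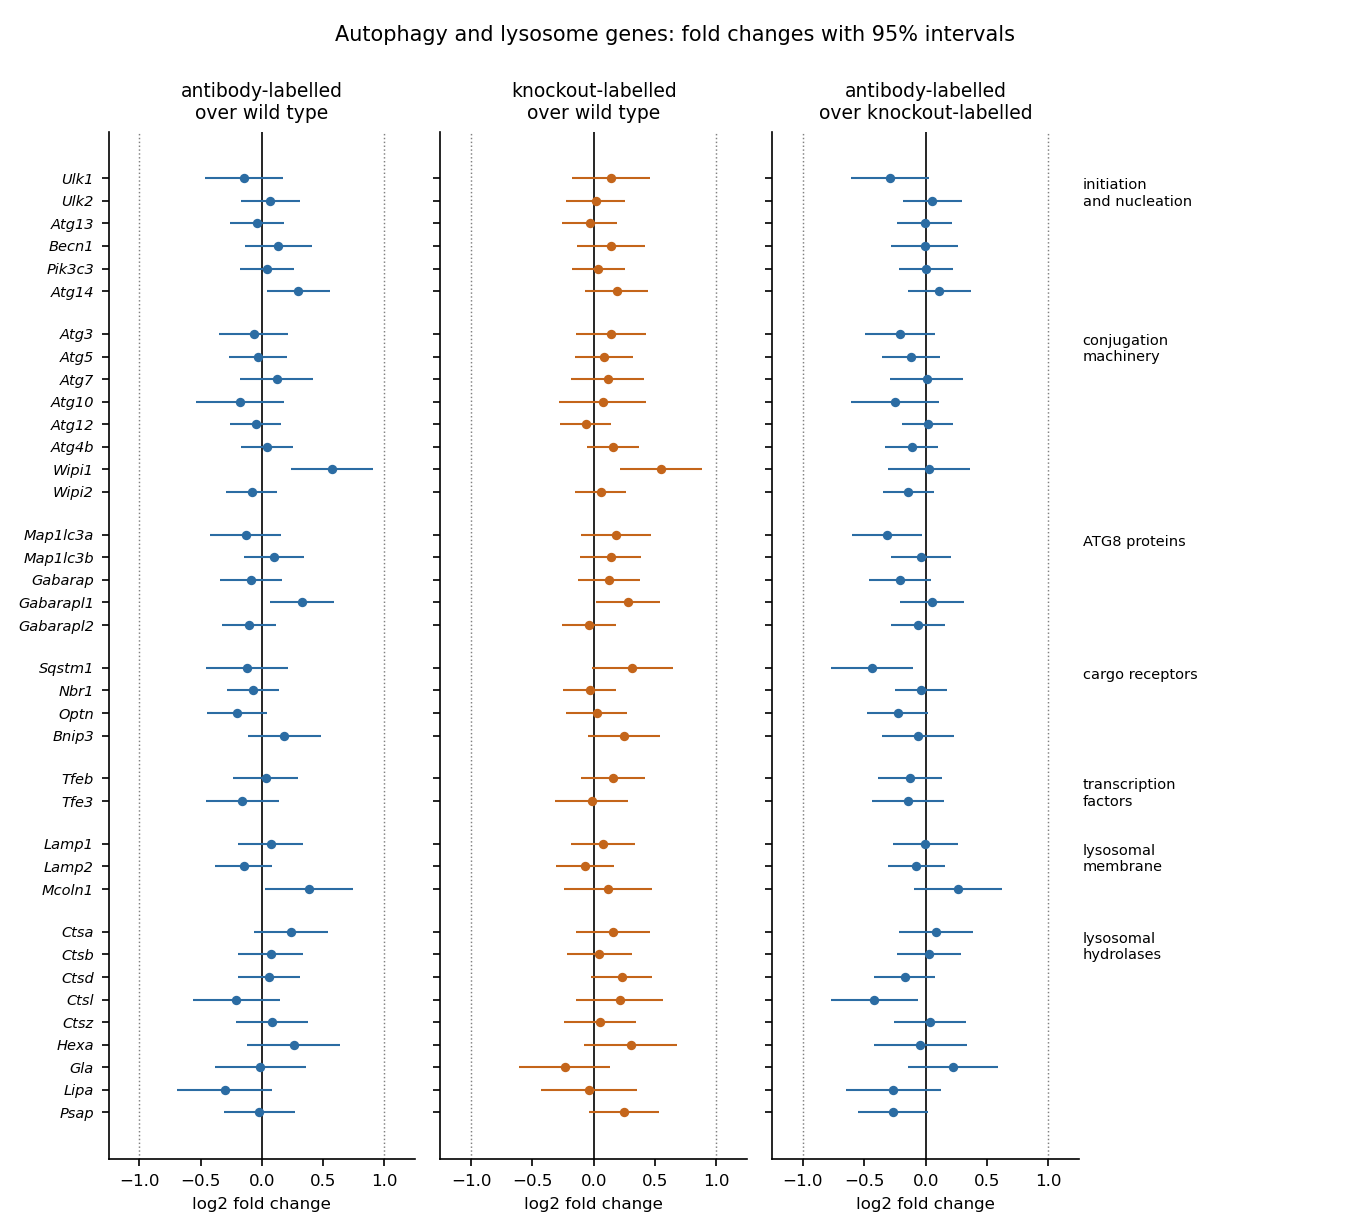
Log2 fold changes (points) with 95% intervals (lines) of the 37 genes, by block, for antibody-labelled livers over wild type, knockout-labelled livers over wild type and antibody-labelled over knockout-labelled livers, 3 livers a group; dotted lines mark a 2-fold change. All intervals lie between the dotted lines, and Wipi1 has the highest fold change in both comparisons with wild type, 0.58 and 0.55.

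The signs of the fold changes depended on the comparison. In antibody-labelled livers over wild type 18 of 37 log2 fold changes were above 0, with a median of -0.01, beside 50.3% and a median of 0.00 over all genes tested. That count is of the main fit, and signs near 0 turned both ways under the 19 alternative fits described further on. Across these fits Lamp2 ran from -0.18 to 0.02, Sqstm1 from -0.20 to 0.04 and Ulk2 from -0.02 to 0.14. In knockout-labelled livers over wild type 29 of 37 were above 0, with a median of 0.12, beside 48.6% and -0.01 over all genes. In antibody-labelled over knockout-labelled livers 12 of 37 were above 0, with a median of -0.06, beside 53.5% and 0.02; this count was 9 after rescaling by median ratio and 18 after quantile normalization. The knockout-labelled count rested on 1 library. Relative to each gene's mean over the 9 livers, the members averaged 0.19 higher on the log2 scale in knockout-labelled liver 1, while the other 8 livers averaged between -0.05 and 0.00. Without knockout-labelled liver 1, 19 of 37 fold changes over wild type were above 0 and their median was 0.02. The comparison of antibody-labelled with knockout-labelled livers used the same library. Knockout-labelled livers 2 and 3 averaged -0.0036 and 0.0048 on that scale, and the antibody-labelled livers -0.0009, -0.0148 and -0.0443. Knockout-labelled liver 1 had the fewest estimated reads and the highest hepatocyte marker sum, 3106909. It also had the highest Kupffer cell and macrophage marker sum, 43323, beside 27675 to 37112 in the other livers. The part of these in its higher member values was not tested.

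**Figure D2:**
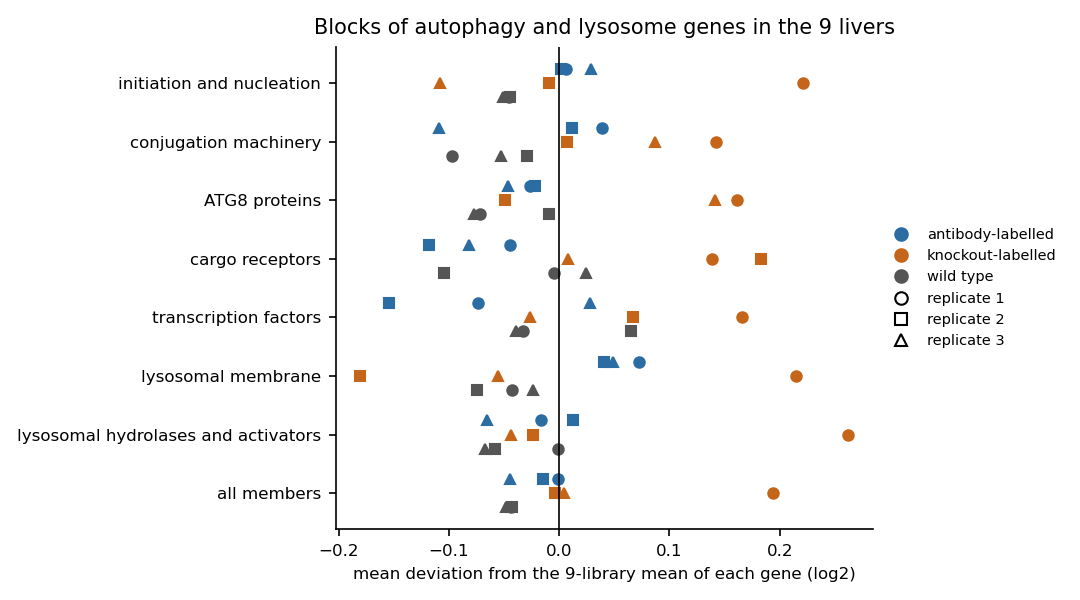
Mean deviation of each block of genes from the 9-liver mean of each gene (log2 scale, horizontal axis) in each liver; colour marks the group and symbol the replicate, and the last line is the mean over all 37 genes. Over all 37 genes knockout-labelled liver 1 stands at 0.19, and the other 8 livers lie between -0.05 and 0.00.

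The initiation and nucleation block holds the ULK kinases Ulk1 and Ulk2 with their adaptor Atg13, and the lipid kinase Pik3c3 with its partners Becn1 and Atg14, which mark the membrane where the autophagosome forms. Ulk1 had 5369, 5404 and 6221 in the antibody-labelled livers, 8639, 6813 and 5576 in the knockout-labelled livers and 6334, 5894 and 6540 in wild type. Its highest values were knockout-labelled livers 1 and 2, and the groups overlapped. The log2 fold change of Ulk1 in antibody-labelled over knockout-labelled livers was -0.29 (SE 0.146, limma adjusted p = 0.419). Atg14, which directs Pik3c3 to the site of autophagosome formation, had 1411, 1603 and 1566 in the antibody-labelled livers, 1594, 1452 and 1216 in the knockout-labelled livers, and 1236, 1229 and 1256 in wild type. All 3 antibody-labelled livers were above all 3 wild-type livers (log2 fold change 0.30, SE 0.118, limma adjusted p = 0.386), and knockout-labelled liver 3 was below them. Of the other 4 genes, Ulk2, Atg13, Becn1 and Pik3c3, the log2 fold changes lay between -0.04 and 0.14 in all 3 comparisons. Becn1 in antibody-labelled livers was 4291, 4493 and 4644, above the 3966, 4193 and 4066 of wild type, with a log2 fold change of 0.14.

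The conjugation block attaches ATG8 proteins to the lipid of the growing membrane: Atg7 activates them, Atg3 transfers them, Atg10 joins Atg12 to Atg5, and Atg4b trims and releases them, while Wipi1 and Wipi2 bind the lipid made by Pik3c3. Wipi1 (ENSMUSG00000041895, mm9 chr11:109434645-109473281, minus strand) had 2547, 2743 and 2155 in the antibody-labelled livers, 2295, 2267 and 2738 in the knockout-labelled livers and 1418, 1540 and 2085 in wild type. All 6 antibody-labelled and knockout-labelled livers were above all 3 wild-type livers, although the highest wild-type liver, at 2085, was close to the lowest antibody-labelled one, at 2155. The log2 fold change of Wipi1 was 0.58 in antibody-labelled livers (1.49-fold, SE 0.154, limma adjusted p = 0.12) and 0.55 in knockout-labelled livers (1.46-fold, adjusted p = 0.149). Without wild-type liver 3 the antibody-labelled fold change of Wipi1 was 0.74 with an adjusted p of 0.0334, and over all 19 alternatives its adjusted p ranged from 0.0173 to 0.416. Its relative Wipi2 had 6340, 5796 and 5865 in the antibody-labelled livers, 6776, 6394 and 6669 in the knockout-labelled livers and 6470, 6608 and 5997 in wild type. The groups of Wipi2 overlapped with wild type, with log2 fold changes of -0.08 in antibody-labelled livers (95% interval -0.29 to 0.12) and 0.06 in knockout-labelled livers (-0.15 to 0.27).

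Atg3 had 4419, 4020 and 4125 in the antibody-labelled livers, 5985, 4210 and 4475 in the knockout-labelled livers, and 4442, 4557 and 4165 in wild type, so that knockout-labelled liver 1 alone stood above the rest. Its log2 fold change in antibody-labelled over knockout-labelled livers was -0.21 (SE 0.13, limma adjusted p = 0.522), and -0.05 without that liver. Atg5, Atg7, Atg10, Atg12 and Atg4b had log2 fold changes between -0.18 and 0.16 against wild type in either group. Atg10 was 1 of the 2 members with fewer than 100 estimated reads in a liver, with normalized values of 234, 315 and 241 in the antibody-labelled livers, 315, 332 and 287 in the knockout-labelled livers, and 272, 330 and 288 in wild type.

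The ATG8 proteins coat the autophagosome, dock the cargo receptors and help the sac fuse with the lysosome. Gabarapl1 (ENSMUSG00000030161, mm9 chr6:129483218-129492349, plus strand) had 36865, 39382 and 36396 in the antibody-labelled livers, 41565, 31975 and 35844 in the knockout-labelled livers and 29399, 28806 and 31469 in wild type. As with Wipi1, all 6 antibody-labelled and knockout-labelled livers were above all 3 wild-type livers. The log2 fold change of Gabarapl1 was 0.33 in antibody-labelled livers (SE 0.12, limma adjusted p = 0.317) and 0.28 in knockout-labelled livers (SE 0.12, adjusted p = 0.329). After quantile normalization the antibody-labelled fold change of Gabarapl1 was 0.48 with an adjusted p of 0.0293, and over all 19 alternatives its adjusted p ranged from 0.0293 to 0.72. Map1lc3b, which encodes the LC3 protein most used as a marker of autophagosomes, had 6113, 6130 and 5947 in the antibody-labelled livers, 5611, 5946 and 7251 in the knockout-labelled livers, and 5464, 5493 and 6055 in wild type. The groups of Map1lc3b overlapped, with log2 fold changes over wild type of 0.10 in antibody-labelled livers (95% interval -0.15 to 0.34) and 0.14 in knockout-labelled livers (-0.11 to 0.38). Map1lc3a had 3153, 2812 and 2906 in the antibody-labelled livers, 4100, 3025 and 3999 in the knockout-labelled livers, and 3283, 3543 and 2921 in wild type. In antibody-labelled over knockout-labelled livers its log2 fold change was -0.31 (SE 0.131, limma adjusted p = 0.328). Gabarap and Gabarapl2 had log2 fold changes between -0.10 and 0.12 over wild type in either group. How reads that match several of these related genes were counted is not stated in the labels.

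The cargo receptors tie ubiquitin-tagged protein or mitochondria to ATG8 proteins, and are themselves degraded with the cargo. Sqstm1 (p62, ENSMUSG00000015837, mm9 chr11:50012868-50024329, minus strand) had 30562, 28549 and 34831 in the antibody-labelled livers, 49715, 45891 and 33034 in the knockout-labelled livers and 35080, 33906 and 32895 in wild type. Knockout-labelled livers 1 and 2 were high and knockout-labelled liver 3 lay among the wild-type livers. The log2 fold change of Sqstm1 was -0.12 in antibody-labelled livers over wild type (SE 0.152, limma adjusted p = 0.892), 0.32 in knockout-labelled livers over wild type (adjusted p = 0.39) and -0.44 in antibody-labelled over knockout-labelled livers (adjusted p = 0.256). Optn, a receptor for ubiquitin-tagged bacteria and mitochondria, had 8744, 8249 and 7073 in the antibody-labelled livers, 10091, 9545 and 8482 in the knockout-labelled livers and 9556, 8904 and 9144 in wild type. The antibody-labelled livers were all below wild type (log2 fold change -0.20, SE 0.113, limma adjusted p = 0.628). Nbr1, which works beside Sqstm1, varied between 14056 and 16270 over the 9 livers, and its 95% intervals stayed between -0.29 and 0.18 on the log2 scale in all 3 comparisons. Bnip3, a receptor on mitochondria, had log2 fold changes of 0.18 in antibody-labelled livers and 0.25 in knockout-labelled livers over wild type, with overlapping groups.

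Tfeb and Tfe3 act mainly through where their proteins sit in the cell, which transcript levels do not measure. Tfeb had 768, 818 and 824 in the antibody-labelled livers, 952, 764 and 927 in the knockout-labelled livers and 782, 831 and 747 in wild type. These groups overlapped, with log2 fold changes over wild type of 0.03 in antibody-labelled livers (95% interval -0.23 to 0.29) and 0.16 in knockout-labelled livers (-0.10 to 0.42). Tfe3 had 1758, 1477 and 1887 in the antibody-labelled livers, 1975, 2148 and 1555 in the knockout-labelled livers, and 1827, 1969 and 1895 in wild type. Its log2 fold change in antibody-labelled livers over wild type was -0.16 (SE 0.136, limma adjusted p = 0.818).

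Promoter windows of the members were read for the letters that these factors bind. The windows run from 250 bases before to 50 bases after each gene start and come from RefSeq on GRCm38.p6, a different build from the mm9 of the expression table, and 32 of the 37 members had a window. On either strand, the E-box core CACGTG stood in the windows of 11 members, Atg14, Atg3, Atg5, Atg7, Bnip3, Ctsa, Ctsd, Ctsl, Gla, Lamp1 and Mcoln1, and in 8.09% of all 27025 genes with a window. The extended form TCACGTGA, which contains that core, stood in 5 members, beside 1.12% of all genes. The longest palindrome searched, of which TCACGTGA is the middle, stood in 0 members, beside 0.37%, and the forkhead letters GTAAACA in 0 members, beside 4.05%. The full cAMP response element TGACGTCA, bound by CREB downstream of glucagon, stood in the window of Atg5 alone, beside 2.03% of all genes. Each stretch below is 1 place per gene, 5′ to 3′ on the gene's strand, with the motif in capitals; the first 5 are members with the extended E-box, and Clcn7, a lysosomal chloride transporter described further on, is shown because it passed the test and holds the same letters. Of the 5 genes of the wider pathway that passed, 4 had a window, and the other 3 of these held no CACGTG in it.
Mcoln1 (chr8:3500457-3500496, plus): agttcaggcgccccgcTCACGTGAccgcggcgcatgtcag
Ctsa (chr2:164833744-164833783, plus): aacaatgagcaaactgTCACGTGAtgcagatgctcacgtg
Ctsd (chr7:142387903-142387942, minus): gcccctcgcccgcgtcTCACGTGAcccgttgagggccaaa
Gla (chrX:134601177-134601216, minus): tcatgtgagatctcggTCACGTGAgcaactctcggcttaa
Atg3 (chr16:45158741-45158780, plus): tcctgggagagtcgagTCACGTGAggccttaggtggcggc
Clcn7 (chr17:25133381-25133420, plus): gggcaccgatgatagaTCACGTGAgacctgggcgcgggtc
Atg5, with the cAMP response element in capitals (chr10:44268322-44268361, plus): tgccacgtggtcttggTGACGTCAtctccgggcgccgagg

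The fold changes of members with and without the E-box core are given as a description. In antibody-labelled livers over wild type the median log2 fold change was 0.07 over the 11 members with CACGTG in their window and -0.07 over the 21 without it. The ranges overlapped, at -0.21 to 0.38 with it and -0.30 to 0.58 without it, and Wipi1, the highest member, was among those without it. In knockout-labelled livers over wild type the medians were 0.14 and 0.07, with ranges of -0.24 to 0.25 and -0.07 to 0.55. Of the members with the extended form, Mcoln1 and Ctsa had log2 fold changes of 0.38 and 0.24 in antibody-labelled livers over wild type, and Ctsd, Gla and Atg3 had 0.06, -0.01 and -0.07. Atg5, which holds the cAMP response element, had log2 fold changes of -0.03 in antibody-labelled livers and 0.09 in knockout-labelled livers. A match of letters is a description of the window and not a measured binding site.

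Among the lysosomal membrane genes, Lamp1 and Lamp2 encode the main coat proteins of the lysosome and Mcoln1 the calcium channel whose opening activates TFEB. Mcoln1 (ENSMUSG00000004567, mm9 chr8:3500457-3515232, plus strand) had 2573, 2824 and 2582 in the antibody-labelled livers, 3000, 1752 and 2066 in the knockout-labelled livers and 1997, 1949 and 2180 in wild type. All antibody-labelled livers were above wild type, while the knockout-labelled livers spanned a wider range than either. The log2 fold change of Mcoln1 was 0.38 in antibody-labelled livers (SE 0.164, limma adjusted p = 0.443) and 0.12 in knockout-labelled livers, where it was -0.10 without knockout-labelled liver 1. Lamp1 had 32009, 31031 and 30408 in the antibody-labelled livers, 35766, 26697 and 31841 in the knockout-labelled livers and 29778, 30100 and 29069 in wild type. Its log2 fold change was 0.07 over wild type in both groups, with 95% intervals of -0.19 to 0.33 in antibody-labelled livers and -0.19 to 0.34 in knockout-labelled livers. Lamp2, which is also needed for uptake of single proteins by chaperone-mediated autophagy, had 38751, 34143 and 38720 in the antibody-labelled livers, 40035, 40350 and 37247 in the knockout-labelled livers, and 42230, 40119 and 41236 in wild type. The antibody-labelled livers were all below wild type, with a log2 fold change of -0.15 (SE 0.107, limma adjusted p = 0.765).

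The hydrolase block holds 5 cathepsins, Ctsa, Ctsb, Ctsd, Ctsl and Ctsz, which cut proteins; Hexa and Gla, which remove sugars from glycolipids; Lipa, which cleaves cholesterol esters and triglycerides; and Psap, the precursor of the saposins that help such enzymes reach lipids. Ctsb had 32675, 33001 and 31783 in the antibody-labelled livers, 36755, 27441 and 32035 in the knockout-labelled livers and 31977, 30539 and 30151 in wild type. Its intervals stayed between -0.24 and 0.34 on the log2 scale in all 3 comparisons. Ctsd had 25842, 24943 and 24481 in the antibody-labelled livers, 32482, 25658 and 26907 in the knockout-labelled livers and 24859, 23827 and 23602 in wild type. The knockout-labelled livers were all above wild type (log2 fold change 0.23, SE 0.114, limma adjusted p = 0.412). Ctsa, which also shields beta-galactosidase and neuraminidase in the lysosome, had 12573, 14693 and 11695 in the antibody-labelled livers, 14521, 10144 and 12401 in the knockout-labelled livers and 11250, 10734 and 10873 in wild type. The antibody-labelled livers were all above wild type (log2 fold change 0.24, SE 0.138, limma adjusted p = 0.647).

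Ctsl (ENSMUSG00000021477, mm9 chr13:64464522-64471614, minus strand) had 33825, 40025 and 37079 in the antibody-labelled livers, 58130, 43500 and 47283 in the knockout-labelled livers, and 40563, 35693 and 53340 in wild type. The antibody-labelled livers were all below the knockout-labelled livers, and wild type spanned both. The log2 fold change in antibody-labelled over knockout-labelled livers was -0.42 (SE 0.163, limma adjusted p = 0.303). Psap had 47068, 42736 and 45336 in the antibody-labelled livers, 65593, 50546 and 47978 in the knockout-labelled livers, and 47312, 43777 and 45856 in wild type. All knockout-labelled livers were above the other 6, with liver 1 far above the rest, and the log2 fold change of Psap over wild type was 0.25 in knockout-labelled livers (SE 0.132, limma adjusted p = 0.435) and -0.02 in antibody-labelled livers. Lipa had the most negative fold change of any member in antibody-labelled livers over wild type, -0.30 (adjusted p = 0.658), with 16849, 14410 and 19738 in the antibody-labelled livers, 19719, 26741 and 15702 in the knockout-labelled livers, and 21779, 21032 and 19646 in wild type. Hexa stood at 6564 in knockout-labelled liver 1 and between 3931 and 5459 in the other 8 livers. Gla, whose fold change in knockout-labelled livers over wild type was the most negative of the 37 at -0.24, had as few as 54 estimated reads in a liver. Ctsz had log2 fold changes of 0.08 in antibody-labelled livers and 0.05 in knockout-labelled livers over wild type.

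Counting livers rather than fitting them gave the following. All 3 antibody-labelled livers lay above all 3 wild-type livers for 7 members, Becn1, Atg14, Wipi1, Gabarapl1, Lamp1, Mcoln1 and Ctsa, which is 18.9% of the 37 beside 9.65% of all genes tested, and below them for 2, Optn and Lamp2, which is 5.41% beside 9.54%. All 3 knockout-labelled livers lay above wild type for 6 members, Atg5, Atg4b, Wipi1, Gabarapl1, Ctsd and Psap, 16.2% beside 7.09%, and below for 0 members, beside 9.35%. Antibody-labelled livers lay above knockout-labelled livers for Gla alone, 2.70% beside 9.82%, and below them for 4 members, Atg4b, Wipi2, Ctsl and Psap, 10.8% beside 7.38%. Wipi1 and Gabarapl1 were the 2 members that lay above wild type in both groups, which were set against the same wild-type livers.

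**Figure D3:**
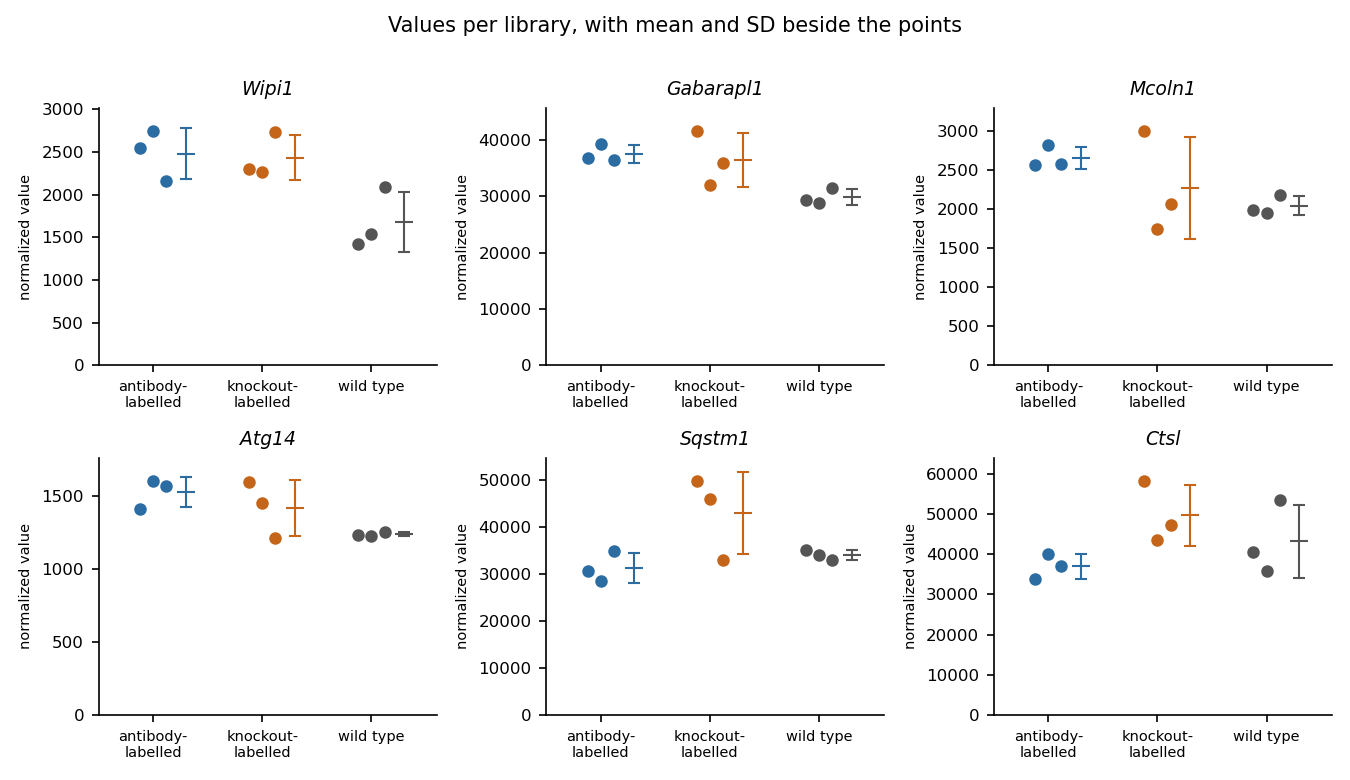
Normalized values (vertical axes, from 0) of Wipi1, Gabarapl1, Mcoln1, Atg14, Sqstm1 and Ctsl in the 3 livers of each group; points are livers, and the bar beside them is the mean with SD. Wipi1 and Gabarapl1 lie above wild type in both other groups, Mcoln1 and Atg14 do so in the antibody-labelled livers, and Sqstm1 and Ctsl are highest in knockout-labelled liver 1.

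A further 153 genes of the same pathway, in 6 lists, were set beside the members, and all 153 were tested. These lists too were chosen with earlier results of these data known. Between antibody-labelled livers and wild type 5 of 153 rose and 0 fell past an adjusted p of 0.05, beside 0.714% and 0.624% of all genes tested. Between knockout-labelled livers and wild type 0 of 153 passed by limma, beside 0.155% of all genes; with an unadjusted p under 0.05, 15 were higher and 8 were lower, 9.8% and 5.23% of the 153 beside 5.61% and 8.16% of all genes. In antibody-labelled over knockout-labelled livers 0 of 153 passed by limma, beside 0.28% of all genes. With an unadjusted p under 0.05, 27 were higher and 7 were lower, 17.6% and 4.58% of the 153 beside 7.78% and 5.53% of all genes. The 5 that rose in antibody-labelled livers were Cd63, Clcn7, Galc, Galns and Fnip2; the first 4 are lysosomal membrane proteins or hydrolases, and Fnip2 is a partner of folliculin in the amino acid signal to mTORC1 and TFEB.

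Cd63, a membrane protein of late endosomes and lysosomes, had 195, 427 and 198 in the antibody-labelled livers, 131, 139 and 109 in the knockout-labelled livers and 48.7, 77.4 and 65.1 in wild type. It rose 4.01-fold in antibody-labelled livers over wild type (log2 fold change 2.01, SE 0.301, limma adjusted p = 0.00823), and its knockout-labelled livers lay between the other groups at 1.99-fold over wild type (adjusted p = 0.179). Leaving out 1 library gave log2 fold changes of 1.63 to 2.20 for Cd63 in antibody-labelled livers over wild type. All 3 wild-type values lay below 293, the median of the mean values over genes tested. As 1 estimated read was worth 2.181, 1.504 and 2.107 in wild-type livers 1, 2 and 3, the wild-type level of Cd63 rests on few reads. Fnip2 had 3069, 3309 and 2845 in the antibody-labelled livers, 1963, 2045 and 2233 in the knockout-labelled livers and 1993, 1196 and 1170 in wild type. It rose 2.18-fold in antibody-labelled livers (log2 fold change 1.12, SE 0.177, adjusted p = 0.00978), with 1 wild-type liver at the level of the knockout-labelled livers. Without antibody-labelled liver 2 the adjusted p of Fnip2 was 0.0507. In knockout-labelled livers over wild type Fnip2 was 1.48-fold (log2 fold change 0.56, SE 0.177, limma adjusted p = 0.192). Flcn, the partner of Fnip2, was chosen after its values were seen. It had 2105, 3401 and 3046 in antibody-labelled livers, 2805, 2360 and 2060 in knockout-labelled livers and 1719, 1715 and 2219 in wild type. Flcn did not pass over wild type in antibody-labelled livers (log2 fold change 0.58, SE 0.182, adjusted p = 0.216). Nor did it in knockout-labelled livers (0.35, SE 0.182, limma adjusted p = 0.422).

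Clcn7, which exchanges chloride for protons in the lysosome membrane, had 3913, 4290 and 3746 in the antibody-labelled livers, 3155, 2696 and 3344 in the knockout-labelled livers and 2432, 2382 and 2207 in wild type. It rose 1.70-fold in antibody-labelled livers (log2 fold change 0.77, SE 0.11, limma adjusted p = 0.00634), and the 3 groups did not overlap. Galc, which breaks down galactosylceramide, had 975, 902 and 1061 in the antibody-labelled livers, 683, 697 and 577 in the knockout-labelled livers and 543, 580 and 559 in wild type. It rose 1.74-fold in antibody-labelled livers (log2 fold change 0.80, SE 0.122, adjusted p = 0.00889) and was the only one of the 5 that passed under all 19 alternatives. Galns, a sulfatase acting on keratan and chondroitin sulfate, had 815, 988 and 733 in the antibody-labelled livers, 706, 479 and 499 in the knockout-labelled livers and 446, 490 and 476 in wild type. It rose 1.78-fold in antibody-labelled livers (log2 fold change 0.83, SE 0.167, adjusted p = 0.0326), a call lost under 7 of the 19 alternatives, 5 of which left out 1 library (antibody-labelled liver 1 or 2, or any wild-type liver), with adjusted p between 0.0545 and 0.16. Without trend and robust estimation the adjusted p was 0.0586 for Cd63, 0.0601 for Clcn7, 0.0861 for Fnip2 and 0.125 for Galns, and 4 of the 5 calls were lost. In antibody-labelled over knockout-labelled livers the 5 genes had log2 fold changes from 0.38 to 1.01, and the adjusted p lay between 0.0683 and 0.209, so none passed. Knockout-labelled livers over wild type had log2 fold changes of 0.21 for Galc and 0.23 for Galns (limma adjusted p = 0.472 and 0.577).

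**Figure D4:**
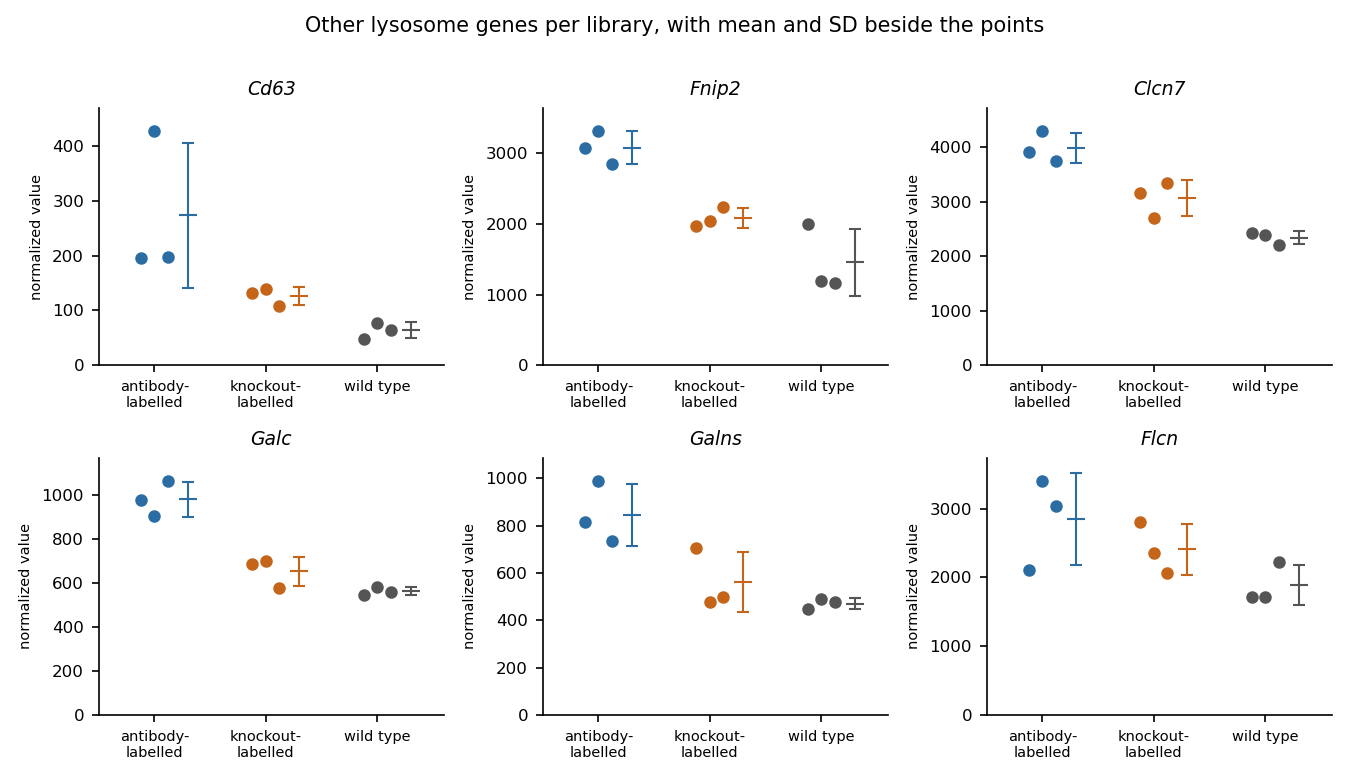
Normalized values (vertical axes, from 0) of the 5 other autophagy and lysosome genes that rose in antibody-labelled livers, and of Flcn, in the 3 livers of each group; points are livers, and the bar beside them is the mean with SD. Cd63, Clcn7, Galc and Galns lie above wild type in every antibody-labelled liver, as does Fnip2, and antibody-labelled liver 2 of Cd63 stands apart at 427.

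By list, the fold changes of antibody-labelled livers over wild type ran as follows. Of the 39 other lysosomal hydrolases and activators, 34 were above 0, with a median log2 fold change of 0.15, and 15 had all antibody-labelled livers above wild type, 38.5% beside 9.65% of all genes tested. Of the 29 other lysosomal membrane and delivery genes, 24 were above 0, with a median of 0.16, and 13 had all antibody-labelled livers above wild type, 44.8%. Among the 9 hydrolases and activators listed as members, 5 were above 0 with a median of 0.06. The 27 other autophagy genes had a median of 0.03, the 15 other cargo and mitophagy receptors -0.05, the 26 regulators of mTORC1 and TFEB 0.02 and the 17 subunits of the vacuolar ATPase, the pump that acidifies the lysosome, 0.06. In knockout-labelled livers over wild type the same 6 lists had medians of 0.02 for the hydrolases, 0.05 for membrane and delivery genes, -0.02 for autophagy genes, 0.00 for receptors, 0.01 for regulators and 0.11 for the vacuolar ATPase. Cell type markers stood as follows in antibody-labelled livers over wild type. The 12 Kupffer cell and macrophage markers summed to between 33110 and 37003 in antibody-labelled livers and between 27675 and 37112 in wild type, 10 of 12 fold changes were above 0 with a median of 0.13, 0 passed the test (1 at an unadjusted p under 0.05), and none was at the floor in all livers. The 11 stellate cell and fibroblast markers summed to between 18258 and 19893 in antibody-labelled livers and between 15605 and 18505 in wild type, 10 of 11 fold changes were above 0 with a median of 0.26, and 0 passed (1 at an unadjusted p under 0.05). The 10 sinusoidal endothelial cell markers summed to between 32187 and 35427 in antibody-labelled livers and between 28385 and 32970 in wild type, 8 of 10 fold changes were above 0 with a median of 0.15, and 0 passed (0 at an unadjusted p under 0.05). Of the 11 hepatocyte markers, 2 had a fold change above 0, the median was -0.18, and 0 passed (3 lower at an unadjusted p under 0.05). These 3 were 27.3% of the hepatocyte markers, beside 4.53% of all genes tested that were lower. They were Tat, Cps1 and Apob, with log2 fold changes of -1.09, -0.43 and -0.28. The other hepatocyte markers ran from -0.25 for Hnf4a to 0.06 for Ttr, with Alb at -0.09. Markers higher at an unadjusted p under 0.05 were 8.33% of the Kupffer cell and macrophage list and 9.09% of the stellate cell and fibroblast list. They were 0% of the sinusoidal endothelial list, beside 5.74% of all genes tested. The 7 neutrophil markers tested had a median of 0.43 with 6 above 0, and 1 was higher at an unadjusted p under 0.05 (14.3% beside 5.74%). Their list summed to only 201 to 223 in antibody-labelled livers and 150 to 231 in wild type. Medians were 0.04 for 12 lymphocyte markers (7 above 0), -0.15 for 6 cholangiocyte markers tested (2 above 0) and -0.24 for 7 erythroid markers (0 above 0). In knockout-labelled livers over wild type 10 of 12 Kupffer cell and macrophage markers were above 0, with a median of 0.16. Medians there were 0.16 for stellate cell and fibroblast markers (7 of 11 above 0) and 0.07 for sinusoidal endothelial markers (5 of 10). The hepatocyte markers had 0.09 (8 of 11). The part of these cells in the lysosome gene values was not tested.

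**Figure D5:**
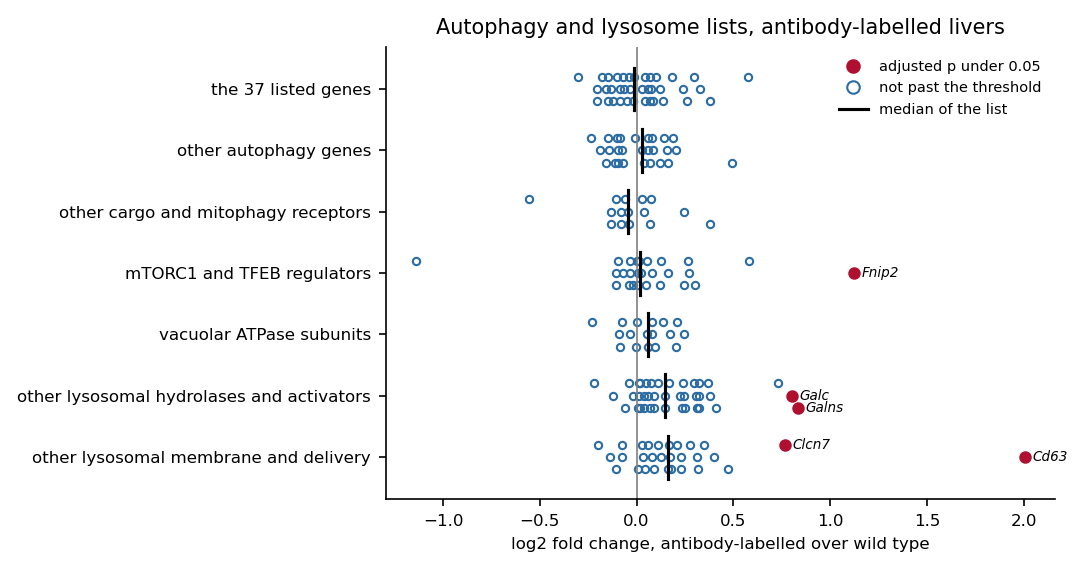
Log2 fold change of antibody-labelled livers over wild type (horizontal axis) for the 37 members and the 6 lists of other autophagy and lysosome genes; filled points passed an adjusted p of 0.05, and the vertical bar is the median of a list. The 37 members have a median of -0.01 and no filled point, and the 2 lists of other lysosomal genes have medians of 0.15 and 0.16 and 4 of the 5 filled points.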

How the data were processed

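Poly(A)-selected liver RNA was read as 50 bp pairs on an Illumina instrument, per the labels. Per the submitters' processing notes, the tools were FastQC, SAMtools and TopHat2 2.0 and the build mm9; for counting, scaling and strand, the tools were not given in the sources used here. A normalized signal per Ensembl gene and library was deposited by the authors, with a floor of 1, at which 15160 of 37583 genes lay in all 9 libraries. Library sums were 42.36 to 52.14 M (M, mega). Reads were estimated from the commonest value above the floor, 1.504 to 4.743, but only 40.79% to 45.79% of low values were whole within 0.01 read, so whole reads were not recovered and count tests were not run.

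From these values log2(value + 1) was computed. Genes above 1 in at least 3 libraries (20029) were fitted with limma 3.58.1 in R 4.3.3 (lmFit, eBayes with trend and robust estimation) over all 9 libraries, with group as the factor. All p-values are two-sided and were adjusted by Benjamini-Hochberg over all genes tested. A permutation of 3 against 3 cannot go below p = 0.1 and was not used. The fit was tested on simulated data. Lists are described by counts and medians. Named in full were, per block and comparison, the member with the smallest p, and Ulk1, Map1lc3b, Sqstm1, Tfeb, Lamp1 and Ctsb; and other listed genes past the threshold, up to 4 per list and comparison. Outside this rule, values by library are also given for Wipi2, Atg10, Lamp2, Psap, Lipa, Flcn, Sort1 and Ctsc. Members and lists were chosen with earlier results of these data known. Of 80 cell type markers, in 8 lists, 79 matched the table; none passed in any comparison. Replicates are samples that the labels number separately; nothing further says how they were kept apart, and p-values then measure the spread between these samples, which may be technical. Alternatives were 10 other settings and 9 fits without 1 library.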

Additional observations from a re-analysis of the deposited data

How the results depend on the processing

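Over 19 alternatives, members past the threshold numbered 0 in knockout-labelled livers over wild type and in antibody-labelled over knockout-labelled livers. In antibody-labelled livers over wild type the number was 0 in 16 and 1 in 3: Gabarapl1 after quantile normalization (log2 fold change 0.48, adjusted p = 0.0293), and Wipi1 with weights per library (0.66, adjusted p = 0.0173) and without wild-type liver 3 (leaving out libraries gave 0 to 1). Of the 5 other genes past the threshold there, 1 remained without trend and robust estimation (Galc). Of all 153 other genes 8 passed with weights per library, and leaving out 1 library gave 3 to 5, the fewest without antibody-labelled liver 2. Sqstm1 in antibody-labelled livers over wild type turned to 0.0441 after quantile normalization, and Lamp1 in antibody-labelled over knockout-labelled livers to 0.13 after it and 0.029 with weights per library. Leaving out 1 library gave log2 fold changes over wild type of -0.10 to 0.29 for Mcoln1, -0.0202 to 0.30 for Ulk1, -0.024 to 0.19 for Lamp1 and -0.0587 to 0.15 for Ctsb in knockout-labelled livers and -0.0066 to 0.0707 for Tfeb in antibody-labelled livers. In antibody-labelled over knockout-labelled livers it gave -0.11 to 0.0699 for Map1lc3b, -0.12 to 0.10 for Lamp1 and -0.0791 to 0.13 for Ctsb. The cause was not tested. No pairing by replicate number was seen: deviations of same-numbered livers correlated between -0.136 and 0.126, and those of different-numbered livers between -0.124 and 0.136. With 3 livers a group, such correlations cannot show that pairing was absent. A replicate block left 0 members past the threshold in all 3 comparisons and 4 other genes in antibody-labelled livers over wild type, without Galns (adjusted p = 0.0545). Gla and Atg10 were the 2 members under 100 estimated reads in a library, and the part of depth in their values was not tested.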

Other observations

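In antibody-labelled over knockout-labelled livers the other autophagy and lysosome genes with the smallest p were Galc, Sort1 and Ctsc, named here after their values were seen. Sort1, a sorting receptor that carries hydrolases to the lysosome and takes part in lipoprotein secretion in hepatocytes, had 1918, 1653 and 1984 in the antibody-labelled livers, 1228, 1323 and 934 in the knockout-labelled livers and 1460, 1176 and 1365 in wild type. Its antibody-labelled livers lay above the other 6, with a log2 fold change over knockout-labelled livers of 0.68 (SE 0.146, limma adjusted p = 0.0731). Ctsc, a protease that activates serine proteases of immune cells, had 8114, 7752 and 7372 in the antibody-labelled livers, 5845, 4429 and 5870 in the knockout-labelled livers and 5612, 5961 and 6307 in wild type. It too was highest in all 3 antibody-labelled livers, with a log2 fold change over knockout-labelled livers of 0.54 (SE 0.123, limma adjusted p = 0.0944). Neither passed the threshold.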
